A study of Rattus norvegicus with 12 samples.

Results

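The 9 genes described here carry blood clotting, its inhibition, the removal of fibrin and a platelet product: F3, Fgl2, Tfpi, Thbd, Procr, Plat, Plau, Plaur and Pf4. They were taken by name, as every probe set of the rat expression array whose platform annotation names one of these genes and no other. This gave 17 of 31099 probe sets and 9 of 14217 named genes. Levels were measured in right lungs of 12 rats of 2 strains, both called parents in the series' design text: the Dahl salt-sensitive rat (SS), in which a salty diet raises blood pressure, and the Brown Norway rat (BN). Each strain had 3 control lungs (SS control, BN control) and 3 lungs after HTV ventilation (SS HTV, BN HTV). The labels do not spell out HTV, give no settings, duration, age or sex, state weights of 250 to 350 g for all groups, and describe room air for all of them. All rats were exsanguinated under anaesthesia and the lung vessels were flushed with saline before freezing, and any blood left behind entered the sample. The arrays of a group carry separate animal codes; the p-values measure the spread between these lungs.

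Clotting outside an intact vessel starts when tissue factor, the product of F3, meets factor VII of plasma; tissue factor pathway inhibitor, from Tfpi, shuts that complex down. Thrombin that is formed can be turned from clotting to anticoagulation by thrombomodulin (Thbd), which lets it activate protein C, and the endothelial protein C receptor (Procr) holds protein C in place for this step. Fibrin is dissolved by plasmin, which is released from plasminogen by the tissue-type (Plat) and the urokinase-type (Plau) activator; Plaur is the cell surface receptor of urokinase. In injured lungs fibrin is known to collect in air spaces and small vessels, where epithelium, endothelium and macrophages carry these proteins.

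Of the 17 probe sets 16 passed a filter on dim signal (mean intensity at or above the 40th percentile), at least 1 for each gene. The second probe set of Plaur (1371286_at) did not pass, at an intensity of 1.1 to 13.4 on the 12 arrays. A gene with several is represented by the brightest, and differences are given as log2(intensity + 16) with limma's standard error (SE). The arrays were alike in median intensity (58.6 to 68.1), and the levels are relative to each array's total signal. SS control 3 stood apart: its score on the third principal component was 39.52, against -13.18 to 14.25 for the other arrays. BN HTV 3 had the lowest summed neutrophil markers of the 6 HTV lungs (2840, the others 5238 to 8033). The log2 ratio of 5′ to 3′ signal of the beta-actin controls, which reads how intact the RNA and its labelling were, was -1.40 to -0.23 in SS lungs and -1.46 to -0.88 in BN lungs. The tissue matched its label, with Sftpc of type 2 cells at 2920 to 4581, Ager of type 1 cells at 2182 to 2761 and Kdr of endothelium at 1604 to 2604 on all arrays.

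With HTV, tissue factor, the urokinase receptor, tissue-type plasminogen activator and the protein C receptor were higher in both strains, and platelet factor 4 was higher in SS lungs. One probe set each of Tfpi and Plau was lower in BN lungs, and no probe set of Thbd or Fgl2 passed the test for HTV. In SS lungs 5 of the 16 probe sets were higher and 0 lower (limma, adjusted p below 0.05), while over all 18626 probe sets tested 3.9% were higher and 4.16% lower. In BN lungs 4 were higher and 2 lower, against 3.0% and 2.86% of all. Over both strains 5 were higher and 3 lower, against 7.09% and 8.74%. Counted as genes by their representative, 5 of 9 were higher and 0 lower in SS, 4 higher and 2 lower in BN. Over both strains 5 of the 9 were higher and 2 lower. The shares above are of probe sets, not of genes. The median log2 difference of the 9 was 0.80 in SS, 0.57 in BN and 0.68 over both strains, and that of all probe sets -0.01, -0.04 and -0.02. With each array centred on its median, the shares of higher among all calls moved from 48.4% to 36.5% in SS and from 51.1% to 61.0% in BN. The SS count was 6 without SS control 3 and the BN count 6 without BN HTV 3, but the BN count was 2 without BN HTV 2, 3 without BN HTV 1, BN control 1 or BN control 3, and 4 without BN control 2.

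**Figure D1:**
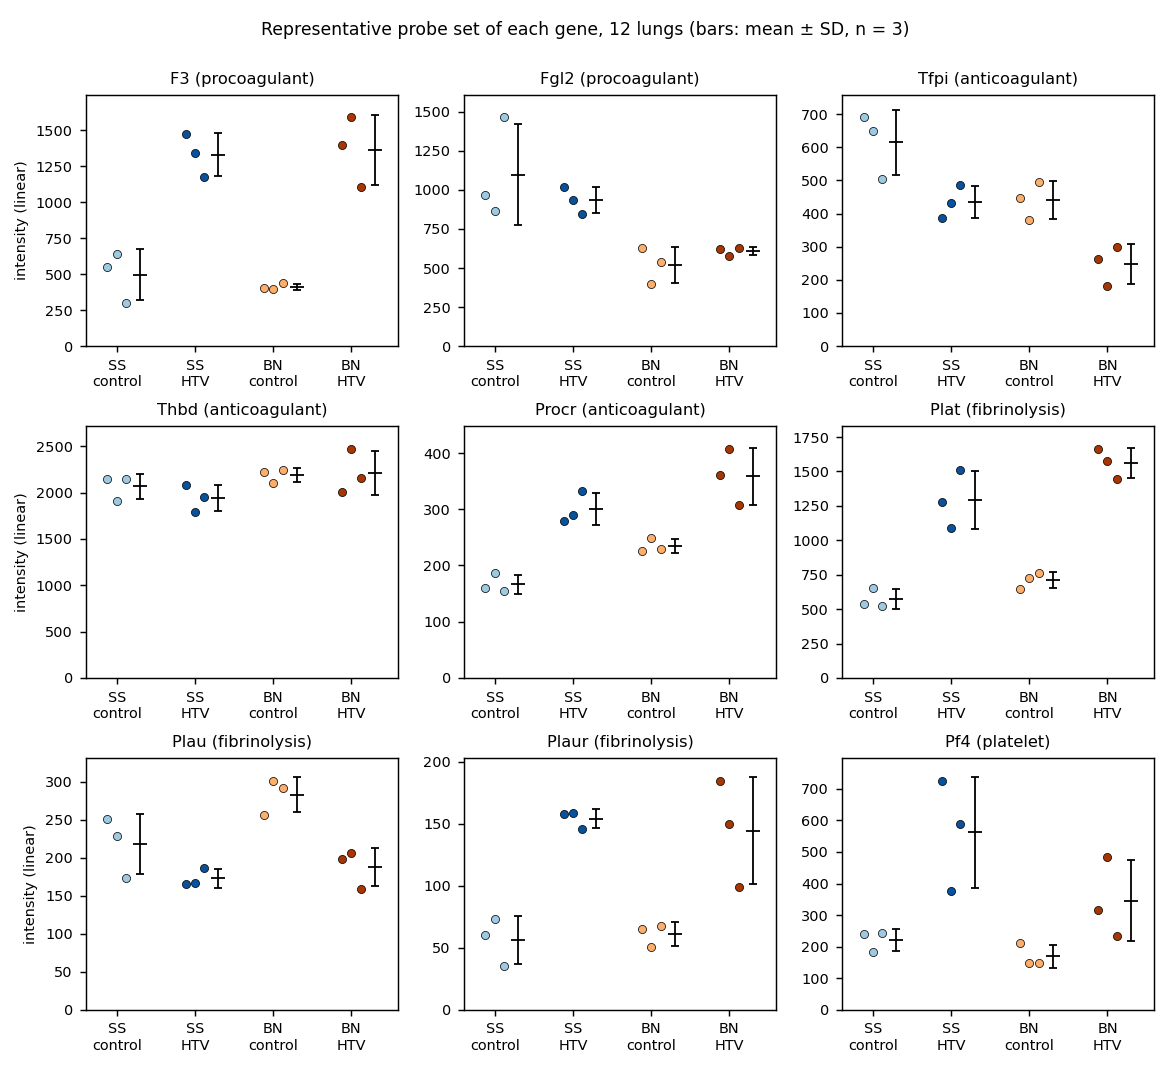
Intensity (linear scale, from 0) of the representative probe set of each gene in 12 lungs, as 1 point per lung with the mean ± SD of 3 lungs beside it. F3, Procr, Plat and Plaur lie higher in all 6 HTV lungs than in all 6 control lungs, while Thbd stays between 1791 and 2468 throughout. The share of all probe sets that separate the lungs in this way was not counted.

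HTV arrays did not overlap the control arrays in SS lungs for 6 of the 16 probe sets (5 above, 1 below), which 29.8% of all probe sets also showed. In BN lungs this held for 11 (8 above, 3 below), against 26.6% of all. In both strains and in the same direction it held for 6 (5 above, 1 below), against 10.7% of all. The 5 above in both strains were F3, Plaur, Plat, Procr and Pf4, and the 1 below was Tfpi 1368323_at. These shares compare lungs within a strain. The share of all probe sets with every HTV lung above every control lung of both strains, as for F3, Plaur, Plat and Procr, was not counted.

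F3 rose with HTV in both strains. Its probe set (1369182_at) read 551.9, 640.2 and 302.4 in SS control lungs and 1477.7, 1343.9 and 1175.4 in SS HTV lungs. Its BN values were 401.8, 400.4 and 438.3 in controls and 1399.5, 1590.6 and 1106.6 with HTV. The lowest HTV lung was thus above the highest control lung of either strain. The rise was 1.45 ± 0.21 in SS (2.73-fold on the fitted scale; limma adjusted p = 0.00141) and 1.67 ± 0.21 in BN (3.18-fold; adjusted p = 0.000611). Without SS control 3, the lowest of all, the SS rise was 1.14 ± 0.14 (adjusted p = 0.000886), and without BN HTV 3 the BN rise was 1.81 ± 0.23 (adjusted p = 0.000891). The order of the group means was BN control, SS control, SS HTV and BN HTV, with overlap between the strains within each condition.

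Fgl2, which encodes a fibrinogen-like protein with prothrombin-cleaving activity in its membrane form and immune-regulating activity in its secreted form, differed between the strains rather than with HTV in its representative. This probe set (1392894_at) read 964, 863.5 and 1463.5 in SS control and 1016.1, 935.2 and 848.6 in SS HTV lungs. In BN lungs it read 626.4, 396.3 and 535.8 in controls and 621.4, 577.3 and 627.1 with HTV. Every SS lung was above every BN lung, and control and HTV lungs overlapped within each strain. SS exceeded BN by 1.04 ± 0.18 in control lungs (limma adjusted p = 0.00371) and by 0.60 ± 0.18 in HTV lungs (adjusted p = 0.0625); without SS control 3, its highest array, the control difference was 0.82 ± 0.15 (adjusted p = 0.00636) and the HTV difference passed (adjusted p = 0.0151).

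The 4 probe sets of Fgl2 did not give the same picture. In the dimmest (1370623_at), 428.7, 386.7 and 318.6 in SS control and 343.7, 301.9 and 324.8 in SS HTV lungs lay above 185.9, 113.2 and 166.1 in BN control and 182.7, 148 and 176.3 in BN HTV lungs. Its difference was 1.22 ± 0.16 in control (limma adjusted p = 0.000586) and 0.88 ± 0.16 in HTV lungs (adjusted p = 0.00504). For 1386637_at SS exceeded BN by 0.66 ± 0.15 in control lungs (adjusted p = 0.0161), a call lost without SS control 2 (adjusted p = 0.0522) or BN control 2 (adjusted p = 0.0717), and by 0.40 ± 0.15 in HTV lungs (adjusted p = 0.131). For 1383516_at the strain differences were 0.34 ± 0.15 (adjusted p = 0.159) and -0.12 ± 0.15 (adjusted p = 0.707). This last probe set and 1386637_at did not overlap between control and HTV in BN lungs, at 429.5 to 482.6 against 620.8 to 697.9 and at 216.7 to 239.3 against 298 to 336. Their HTV differences in BN, 0.52 ± 0.15 (adjusted p = 0.0627) and 0.43 ± 0.15 (adjusted p = 0.132), did not pass. When only the 6 BN arrays were fitted both passed (adjusted p = 0.0175 and 0.0489), and the first also passed under median centring (adjusted p = 0.0472), with array weights (adjusted p = 0.0462) and without SS HTV 1 (adjusted p = 0.0208). In SS lungs the HTV differences of the 4 were -0.21 to 0.17.

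**Figure D2:**
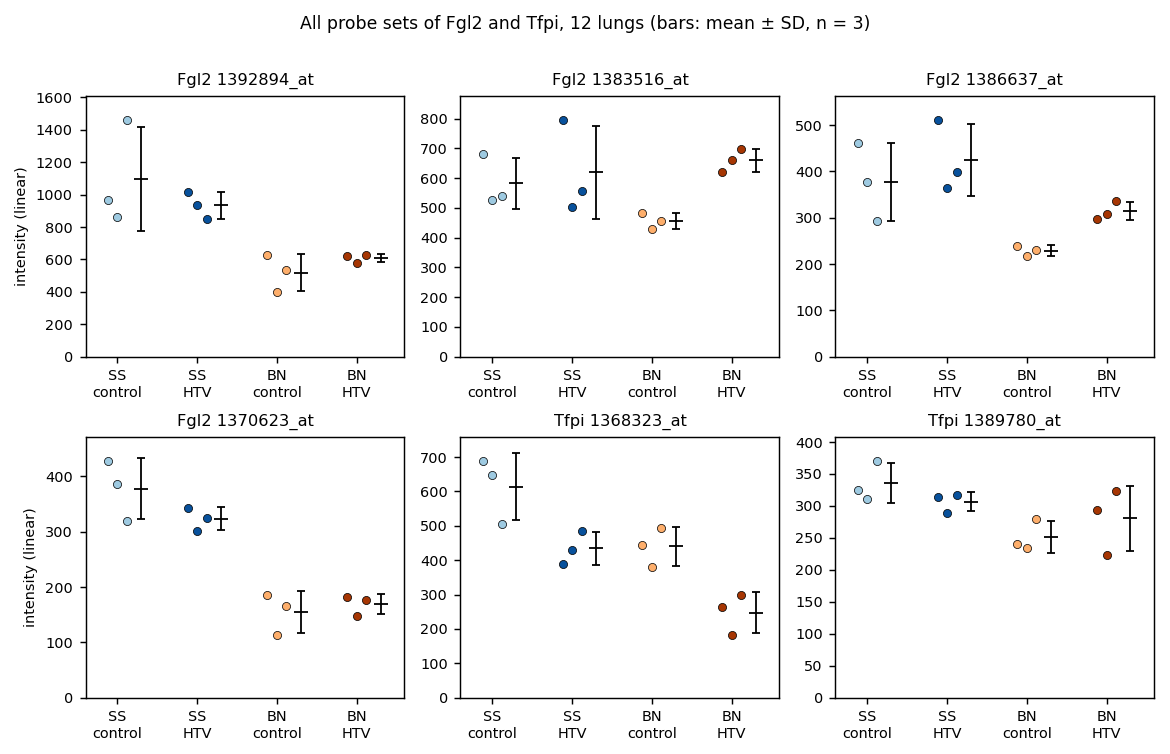
Intensity (linear scale, from 0) of the 4 probe sets of Fgl2 and both probe sets of Tfpi in 12 lungs, 1 point per lung, with the mean ± SD of 3 lungs beside the points. As a ratio of SS to BN, the strain gap of Fgl2 is widest in 1370623_at and small in 1383516_at, and the fall of Tfpi with HTV is seen in 1368323_at but not in 1389780_at.

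Among the inhibitors of clotting, the 3 genes moved in different ways. Tfpi 1368323_at read 689.7, 648.7 and 504.3 in SS control and 387.7, 430.9 and 484.9 in SS HTV lungs. In BN lungs it read 445.4, 379.9 and 494.2 in controls and 262.5, 182.2 and 298.2 with HTV. Control and HTV lungs did not overlap in either strain, and the 3 BN HTV lungs were the lowest of all 12. The difference was -0.48 ± 0.17 in SS (limma adjusted p = 0.105) and -0.81 ± 0.17 in BN (adjusted p = 0.0147). Over both strains Tfpi fell by 0.64 ± 0.12 (adjusted p = 0.00311). The BN call was lost without BN control 1 (adjusted p = 0.0539), BN control 3 (adjusted p = 0.0648) or BN HTV 2 (adjusted p = 0.0566). With array weights the SS difference was -0.57 and passed (adjusted p = 0.0231).

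The other Tfpi probe set did not show this fall. Tfpi 1389780_at read 324.4, 311.2 and 371 in SS control, 313.4, 289.1 and 316.8 in SS HTV, 239.7, 234.7 and 280.1 in BN control and 294.4, 223.7 and 323.5 in BN HTV lungs. Its difference over both strains was 0.01 ± 0.09, with a 95% interval of -0.20 to 0.21. The interval of the first probe set, -0.91 to -0.38, lies apart from it. The files do not say which transcript forms of Tfpi each one measures.

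Tfpi was also higher in SS than in BN lungs by the first probe set, with no overlap in either condition. The share of all probe sets with no overlap between the strains was not counted. The strain difference was 0.46 ± 0.17 in control lungs (limma adjusted p = 0.0948; 0.0477 without SS control 3, 0.0496 without BN HTV 2, 0.0361 under median centring, 0.0189 with array weights) and 0.79 ± 0.17 in HTV lungs (adjusted p = 0.0128). The latter call was lost without SS HTV 3 (adjusted p = 0.062) and with the beta-actin ratio as a covariate (0.58, adjusted p = 0.104), a ratio that itself differed between the strains. By 1389780_at the strain differences were 0.39 ± 0.13 (adjusted p = 0.0688; 0.028 under median centring, 0.0343 without BN HTV 2) and 0.14 ± 0.13 (adjusted p = 0.595).

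Thbd was bright and nearly level in its representative. Thbd 1375951_at read 2141.5, 1908.2 and 2148.5 in SS control, 2077.2, 1791.0 and 1950.6 in SS HTV, 2219.9, 2104.3 and 2241.1 in BN control and 2002.4, 2468.0 and 2155.7 in BN HTV lungs. All 4 groups overlapped their neighbours in order of level. The HTV difference was -0.09 ± 0.10 in SS (limma adjusted p = 0.593; 95% interval -0.30 to 0.12) and 0.01 ± 0.10 in BN (adjusted p = 0.977; -0.20 to 0.22). The second probe set (1368901_at) gave -0.03 (95% interval -0.26 to 0.19) in SS and 0.07 (-0.16 to 0.30) in BN. The third (1368900_at) varied more between lungs, from 263.7 to 552.1, and gave -0.20 (-0.80 to 0.39) and -0.19 (-0.78 to 0.40). The intervals of the brighter pair leave room for changes of at most about 0.30 either way, while the third could hold a larger one. Between the strains 1368901_at did not overlap, at 988.5 to 1255.4 in SS control against 1289.6 to 1343.0 in BN control lungs and at 1040.5 to 1265.0 in SS HTV against 1376.7 to 1422.4 in BN HTV lungs. Its strain difference was -0.20 ± 0.11 in control lungs (adjusted p = 0.223) and -0.31 ± 0.11 in HTV lungs (adjusted p = 0.0919). The latter passed without SS control 3 (adjusted p = 0.0303), with array weights (0.0422) and with the beta-actin ratio as a covariate (0.0355).

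Procr rose in both strains. Its probe set (1372729_at) read 159.4, 185.8 and 154.1 in SS control and 279.5, 290.5 and 333.1 in SS HTV lungs, and 225, 249 and 230 in BN control and 361.3, 406.9 and 307.1 in BN HTV lungs. All HTV lungs were above all control lungs, and BN control lungs were above SS control lungs. The rise was 0.80 ± 0.12 in SS (limma adjusted p = 0.00189) and 0.57 ± 0.12 in BN (adjusted p = 0.0154). The BN call was lost without BN control 1, BN control 3, BN HTV 1 or BN HTV 2 (adjusted p = 0.0612, 0.0561, 0.0592 and 0.0671), and over both strains the rise was 0.68 ± 0.09 (adjusted p = 0.000173). In control lungs the difference of SS from BN was -0.46 ± 0.12 (adjusted p = 0.0279), a call lost under median centring (0.0708), with only the arrays compared (0.0506), and without SS control 1 (0.0668), SS control 3 (0.0615), BN control 2 (0.116) or BN control 3 (0.0681). In HTV lungs the difference was -0.24 ± 0.12 (adjusted p = 0.273).

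Procr, like Thbd, is known mainly from endothelium, and bulk tissue cannot tell fewer cells of a type from less RNA per cell. Of 5 endothelial markers (Pecam1, Tie1, Tek, Kdr, Vwf) 0 passed for HTV in either strain or over both. Their summed intensity was 5055 to 5854 in SS control, 4932 to 5984 in SS HTV, 7064 to 7826 in BN control and 6632 to 7167 in BN HTV lungs. Both Pecam1 (-0.52, limma adjusted p = 0.00952) and Vwf (-0.89 ± 0.12, adjusted p = 0.000631) were lower in SS than in BN control lungs, and the part of this in the strain difference of Procr was not tested.

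Setting the procoagulant against the anticoagulant side within each lung, the log2 ratio of F3 to each inhibitor was taken relative to the mean of the same strain's controls. With HTV the ratio to Tfpi 1368323_at shifted by 2.23, 1.95 and 1.60 in SS (mean 1.93 ± 0.32 SD, n = 3) and by 2.42, 3.10 and 1.92 in BN (mean 2.48 ± 0.59 SD). With the other Tfpi probe set (1389780_at), a comparison added after the data were seen, the shift was smaller, 1.57 ± 0.19 in SS and 1.53 ± 0.51 in BN. The ratio to Thbd shifted by 1.54 ± 0.16 in SS and 1.66 ± 0.23 in BN. The ratio to Procr, which rose itself, shifted by 0.65 ± 0.29 in SS and 1.10 ± 0.07 in BN. For each of the 3 ratios, with 1368323_at for Tfpi, every HTV lung was above every control lung of its strain, where the control SD was 0.35 to 0.62 in SS and 0.05 to 0.13 in BN. For F3 over Procr in SS the margin was small, 0.34 in the lowest HTV lung against 0.27 in the highest control lung. These ratios restate the differences of their genes and carry no test of their own.

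**Figure D3:**
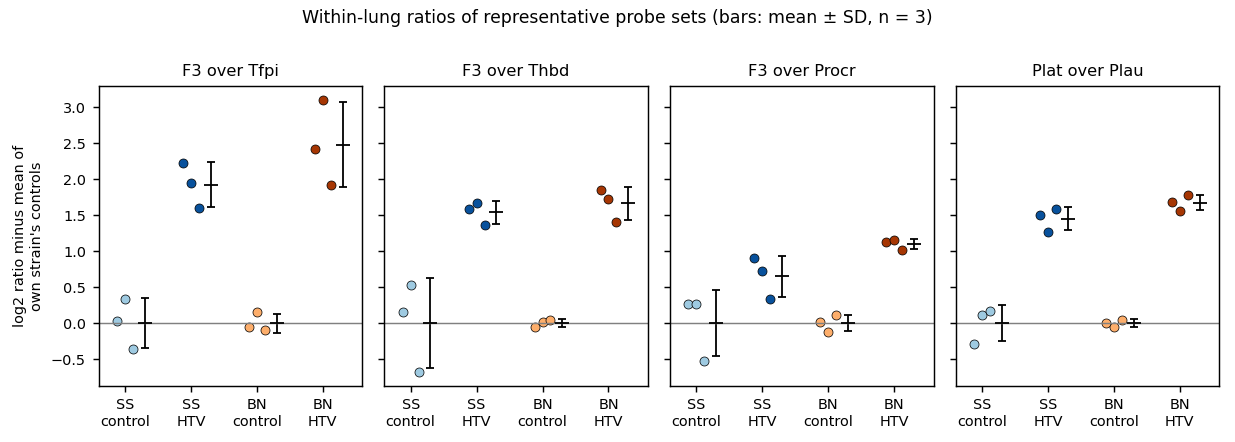
Log2 ratio of F3 to each of Tfpi (1368323_at), Thbd and Procr and of Plat to Plau in each lung, minus the mean of the 3 control lungs of its strain, with 1 point per lung and the mean ± SD of 3 lungs. All HTV points lie above the control points of their strain, by the widest margin for F3 over Tfpi in BN and the narrowest for F3 over Procr in SS.

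In fibrinolysis the plasminogen activators went opposite ways. Plat 1367800_at read 537.2, 654.8 and 520.9 in SS control and 1279.3, 1088 and 1509.2 in SS HTV lungs. The BN values were 645.3, 722.8 and 759.2 in controls and 1661.9, 1574.8 and 1445.2 with HTV. Every HTV lung was above every control lung. The rise was 1.15 ± 0.13 in SS (limma adjusted p = 0.000192) and 1.12 ± 0.13 in BN (adjusted p = 0.00024), nearly the same size, and it passed in both strains under every alternative run. The groups ranked SS control, BN control, SS HTV and BN HTV, with overlap between the strains within each condition.

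Plau 1387675_at read 251.3, 228.7 and 173.8 in SS control and 165.4, 166.1 and 186.6 in SS HTV lungs, which overlapped. In BN lungs it read 256.2, 300.8 and 291.9 in controls and 198.4, 205.8 and 159.2 with HTV, which did not. The difference was -0.30 ± 0.14 in SS (limma adjusted p = 0.208; 0.0459 with array weights) and -0.56 ± 0.14 in BN (adjusted p = 0.0351). The BN call was lost when any 1 of the 6 BN arrays was left out (adjusted p = 0.0565 to 0.119) and with no filter (0.0545). Over both strains Plau fell by 0.43 ± 0.10 (adjusted p = 0.011).

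The second Plau probe set (1398287_at) read 94.7, 122.4 and 54.6 in SS control, 59.7, 60.8 and 51 in SS HTV, 88.9, 72.7 and 82.8 in BN control and 57.5, 50.3 and 50.6 in BN HTV lungs. Its difference of -0.50 ± 0.14 over both strains (limma adjusted p = 0.0291) had the direction and about the size of the first. It was lost with no filter (0.0524) and without any 1 of 8 of the 12 arrays (adjusted p = 0.0513 to 0.0686). Without SS control 3, where it was lowest among controls, the difference was -0.76 ± 0.15 in SS (adjusted p = 0.0119) and passed in BN as well (adjusted p = 0.0384), and over both strains it was -0.63 ± 0.10 (adjusted p = 0.00113).

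The ratio of Plat to Plau within a lung shifted by 1.45 ± 0.16 (SD, n = 3) in SS and 1.68 ± 0.11 in BN. Serpinb2, an inhibitor of urokinase, was too dim to pass the filter, at a mean intensity of 7.53.

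Plaur rose in both strains. Plaur 1387269_s_at read 60.6, 73.1 and 35.2 in SS control and 158, 158.8 and 145.6 in SS HTV lungs. Its values in BN lungs were 65.2, 50.4 and 67.7 in controls and 184.5, 149.6 and 98.9 with HTV. No HTV lung fell into the range of the controls, and BN HTV 3 was the lowest HTV lung. The rise was 1.27 ± 0.22 in SS (limma adjusted p = 0.00369) and 1.03 ± 0.22 in BN (adjusted p = 0.0148). The BN call was lost without BN control 2 (adjusted p = 0.0687), BN HTV 1 (0.0728) or BN HTV 2 (0.0604), and the rise was 1.25 ± 0.21 without BN HTV 3 (adjusted p = 0.00482). The suffix of this probe set marks it as one that may detect related sequences.

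Plaur is also a gene of neutrophils and macrophages, and neutrophil markers moved with it. The summed intensity of 6 neutrophil markers (S100a8, S100a9, Mmp8, Il1r2, Csf3r, Cxcr2) was 1393 to 2347 in SS control, 5238 to 7603 in SS HTV, 918.1 to 1600 in BN control and 2840 to 8033 in BN HTV lungs. Over both strains 6 of 6 were higher, against 7.09% of all probe sets. In SS 4 of them were higher, against 3.9% of all, and in BN 5, against 3.0%. Cxcr2 read 30.0, 43.9 and 28.9 in SS control and 49.4, 17.1 and 34.2 in BN control lungs. It passed the filter level of 43.6 only through its HTV lungs. In BN control lungs Mmp8 read 34.7, 28.2 and 39.4 and Il1r2 37.3, 15.9 and 54.5, mostly below that level. Il1r2 read 25.2, 35.2 and 117.8 in SS control lungs. Of 4 macrophage and monocyte markers 1, Cd14, was higher over both strains. The part of these cells in the rises of Plaur and F3 was not tested.

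**Figure D4:**
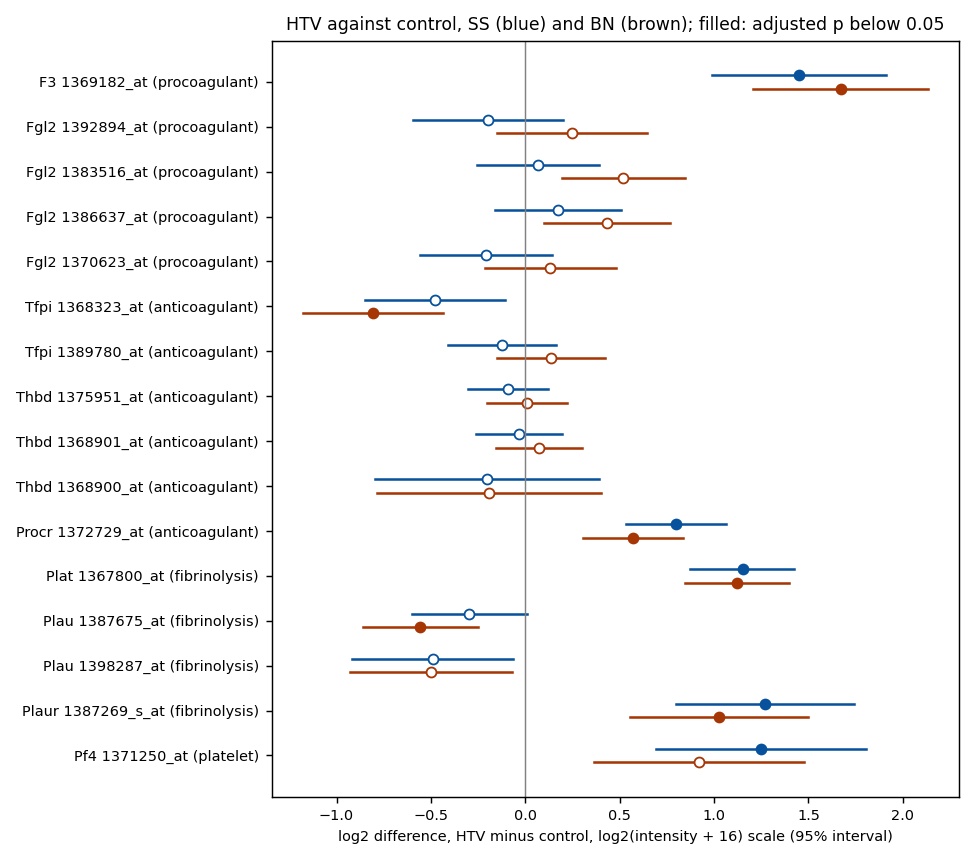
Log2 difference between HTV and control lungs with its 95% interval for each of the 16 probe sets that passed the filter, in SS (blue) and BN (brown); filled points passed the limma test. F3, Procr, Plat and Plaur are filled on the right in both strains, Pf4 in SS, and Tfpi 1368323_at and Plau 1387675_at are filled on the left in BN.

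Promoter sequences from RefSeq (rat assembly GRCr8) were at hand for 4 of the 9 genes: Plaur, Plau, Tfpi and Procr. The 250 bases before the start of 3 of them are printed: Plaur and Procr, which rose with HTV, and Plau, which did not. Capitals mark matches to the motifs searched on both strands: EGR1 (GCGGGGGCG), AP-1 (TGAGTCA), CRE (TGACGTCA), NF-kB (its usual consensus), KLF (CCACCC), SP1 (GGGCGG) and E-box (CACGTG).
Plaur, chr1:89181113-89181362, plus strand: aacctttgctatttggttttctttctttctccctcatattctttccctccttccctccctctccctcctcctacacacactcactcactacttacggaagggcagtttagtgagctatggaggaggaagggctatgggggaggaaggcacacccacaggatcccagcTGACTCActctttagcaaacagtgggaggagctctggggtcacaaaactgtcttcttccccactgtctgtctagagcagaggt
Procr, chr3:164714477-164714726, plus strand: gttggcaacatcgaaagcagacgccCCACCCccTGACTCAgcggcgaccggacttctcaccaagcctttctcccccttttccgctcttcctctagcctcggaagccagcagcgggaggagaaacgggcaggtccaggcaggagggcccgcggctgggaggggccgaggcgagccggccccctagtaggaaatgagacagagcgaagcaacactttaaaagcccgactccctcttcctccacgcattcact
Plau, chr15:3511988-3512237, minus strand: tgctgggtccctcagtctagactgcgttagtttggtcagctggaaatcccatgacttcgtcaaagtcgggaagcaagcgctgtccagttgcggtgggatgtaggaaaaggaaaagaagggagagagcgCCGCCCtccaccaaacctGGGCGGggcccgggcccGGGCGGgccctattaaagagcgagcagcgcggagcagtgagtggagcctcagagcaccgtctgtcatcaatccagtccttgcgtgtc

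Plaur and Procr each held 1 AP-1 match, written TGACTCA on the strand of the gene, 83 to 77 bases before the start of Plaur and 217 to 211 before that of Procr. Of 33469 promoter windows of the same length 4.05% held the AP-1 motif. Procr also had a KLF match 225 to 220 bases before its start (26.1% of windows), close to its AP-1 match and not overlapping it. Plau had 3 SP1 matches, at 122 to 117, 104 to 99 and 87 to 82 bases before its start (30.5% of windows), and no AP-1 match. Of the pair of Tfpi windows, 1 had an SP1 match 52 to 47 bases before its start and the other had no match. No match to EGR1 (2.45% of windows), CRE (1.59%), NF-kB (6.33%) or E-box (5.59%) was found in the 5 windows. A match is a run of letters in the window, and binding was not measured. Any link of the motifs to the changes with HTV was not tested.

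The genes of known regulators of tissue factor and thrombomodulin were taken as a list of 12, all of which passed the filter. Over both strains 9 were higher with HTV and 1 lower, against 7.09% and 8.74% of all probe sets, with a median log2 difference of 0.58 against -0.02. The AP-1 subunit Fos rose by 1.33 ± 0.14 in SS (limma adjusted p = 0.000108) and 1.94 ± 0.14 in BN (adjusted p = 7.13e-06). Egr1, an early-response factor that binds the F3 promoter, rose by 2.54 ± 0.40 in SS (adjusted p = 0.00238) and 2.50 ± 0.40 in BN (adjusted p = 0.00297). Over both strains Junb rose by 1.59 ± 0.20, Nfkbia, the NF-kB inhibitor, by 1.21 ± 0.14, the NF-kB subunit Rela by 0.66 ± 0.08, Jun by 0.64 ± 0.10 and Klf6 by 0.40 ± 0.07, with adjusted p between 9.77e-05 and 0.00202. The 1 lower was Klf2, a shear-responsive endothelial factor known to raise Thbd and to restrain F3. It read 1429.2, 1752 and 1254.2 in SS control and 405.8, 832.2 and 417.4 in SS HTV lungs, and fell by 1.35 ± 0.19 over both strains (adjusted p = 0.000365). Of its 4 other probe sets 1 was too dim to pass the filter, 2 fell over both strains, by 0.99 and 1.51, and 1 did not pass the test (-0.30, adjusted p = 0.147). Thbd, as given above, did not pass in either strain.

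Pf4, a chemokine stored in platelet granules, was higher with HTV. Its probe set (1371250_at) read 239.1, 182.3 and 241.8 in SS control and 725.1, 375.2 and 587.8 in SS HTV lungs. In BN lungs it read 211.5, 148.7 and 148.2 in controls and 316.1, 485.2 and 234.5 with HTV. HTV lungs did not overlap the controls of their own strain, but BN HTV 3 lay below 2 of the SS control lungs. The rise was 1.25 ± 0.26 in SS (limma adjusted p = 0.011; 0.0589 without SS HTV 1). In BN the difference was 0.92 ± 0.26 (adjusted p = 0.054). It passed without BN HTV 3, at 1.16 ± 0.26 (adjusted p = 0.0216), and without SS HTV 1 (0.049) or SS HTV 2 (0.0329), with array weights (0.0329) and under median centring (0.0471). Over both strains it rose by 1.08 ± 0.18 (adjusted p = 0.00135). The group means ranked BN control, SS control, BN HTV and SS HTV, with each overlapping its neighbour.

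Other genes of platelets were read beside it. Of a list of 25 platelet genes 20 have a probe set naming them alone and 16 of these passed the filter. Over both strains 6 of the 16 were higher and 0 lower, against 7.09% and 8.74% of all probe sets, with a median of 0.34 against -0.02. In SS 3 of the 16 were higher, against 3.9% of all, and in BN 4, against 3.0%. Tubb1, the platelet tubulin, read 72.3, 59.2 and 42 in SS control and 300.4, 128.3 and 170.4 in SS HTV lungs, and 60.8, 56.7 and 47.3 in BN control and 216.2, 231 and 150.1 in BN HTV lungs. All HTV lungs were above all control lungs, and the rise was 1.49 ± 0.25 in SS (limma adjusted p = 0.00352) and 1.58 ± 0.25 in BN (adjusted p = 0.00278). Treml1, a platelet granule receptor, rose by 0.82 ± 0.14 over both strains (adjusted p = 0.00159). A shorter list of 9 platelet markers shares genes with this one. Of these 8 have a probe set and 5 passed the filter (Pf4, Itga2b, Treml1, Clec1b, Tubb1). All 5 were higher over both strains, 3 of them in SS and 3 in BN. In BN control lungs the mean intensity of Clec1b (36.3) and Itga2b (43.23) was below the filter level. In SS control lungs it was above that level, at 50.37 and 50.67. The summed intensity of all 8 with a probe set was 420.8 to 576.3 in SS control and 792 to 1570 in SS HTV lungs. In BN lungs it was 398.9 to 504.4 in controls and 717 to 1197 with HTV, with no overlap between HTV and control lungs. The 3 that did not pass the filter were Gp9 (7.5 to 45), Gp5 (14.2 to 42.4) and Ppbp, which read 18.1 to 33.2 in the control lungs and 40.3 to 78 in the HTV lungs. Pf4 is itself one of the 5, and the part of platelets held in the lung in its rise was not tested.

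**Figure D5:**
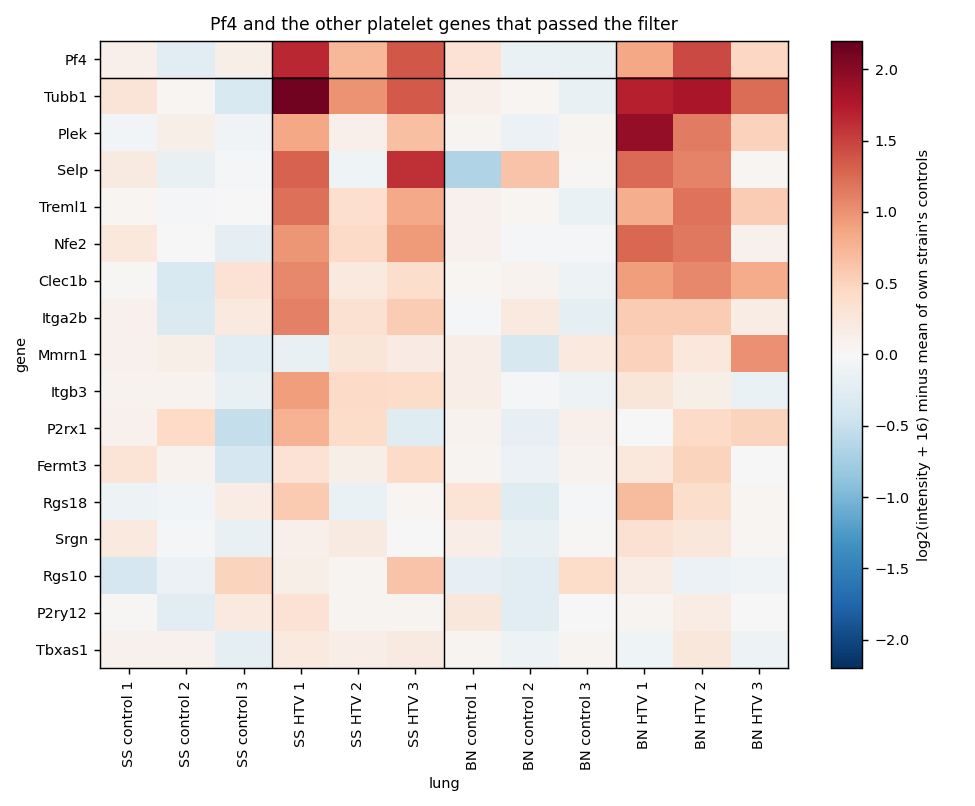
Log2(intensity + 16) of Pf4 (top row) and the 16 platelet genes that passed the filter in 12 lungs (columns), each minus the mean of the 3 control lungs of its strain; red is higher and blue lower. Pf4, Tubb1 and Treml1 are red in all 6 HTV lungs, while Tbxas1 and P2ry12 stay pale.

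Red cell markers were also read. The summed intensity of 3 red cell markers (Hbb, Alas2, Slc4a1) was 1002 to 4890 in SS control, 2972 to 4350 in SS HTV, 659.6 to 2712 in BN control and 2544 to 3849 in BN HTV lungs, and 1 of the 3 was higher over both strains. The part of retained blood in the rise of Pf4 was not tested.

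Beyond the 9 genes, other genes of clotting were read as lists. Of 21 procoagulant factor genes 15 have a probe set naming them alone and 8 of these passed the filter. Over both strains 2 of the 8 were higher and 1 lower, against 7.09% and 8.74% of all probe sets, with a median of 0.06 against -0.02. F5, the cofactor of the prothrombin-cleaving complex, read 83.8, 68.9 and 84.1 in SS control and 272.6, 155.2 and 200 in SS HTV lungs, and 137.2, 148.5 and 137.9 in BN control and 291.2, 257.2 and 247.4 in BN HTV lungs. It rose by 1.22 ± 0.16 in SS (limma adjusted p = 0.000645) and 0.84 ± 0.16 in BN (adjusted p = 0.00885), with no overlap in either strain. Vwf, which carries platelets and factor VIII, gave 0.22 ± 0.12 in SS (adjusted p = 0.275) and -0.09 ± 0.12 in BN (adjusted p = 0.76). Of 13 anticoagulant genes 11 have such a probe set and 7 passed the filter. Over both strains 1 of the 7 was higher, Serpind1 (heparin cofactor II), by 0.83 ± 0.10 (adjusted p = 0.000156), and 0 lower, against the same 7.09% and 8.74%, with a median of -0.01. Serpind1 passed the filter only through its HTV lungs. Its mean intensity was 36.8 in SS control and 38.07 in BN control lungs, below the filter level. With HTV it was 100.9 in SS and 61.53 in BN. F5 and Serpind1 are known as liver products; of 5 liver markers 3 passed the filter, Alb at 36.4 to 73, Ttr at 23 to 80.1 and Serpina1 at 39.6 to 351.3, while Apoa2 (1.4 to 7.8) and Fgb (8.7 to 19.7) did not. The summed intensity of all 5 was 147.6 to 431.5 in SS control, 355.3 to 401.5 in SS HTV, 171.3 to 223.6 in BN control and 177.2 to 200 in BN HTV lungs. One of them, Alb, was higher with HTV in SS (0.53, adjusted p = 0.0485), and 0 passed in BN or over both strains. The part of such RNA in the rises of F5 and Serpind1 was not tested.

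Of 19 genes of plasminogen activation and its inhibitors 16 have such a probe set and 11 passed the filter, with 0 higher and 1 lower over both strains (7.09% and 8.74% of all probe sets) and a median of 0.10. Anxa2, a plasminogen receptor of the cell surface, gave 0.07 ± 0.13 in SS (limma adjusted p = 0.747) and 0.03 ± 0.13 in BN (adjusted p = 0.931). Of 8 genes of protease-activated receptors, through which thrombin and factor VIIa signal to cells, and of their coupled signalling 7 have such a probe set and 6 passed the filter. Over both strains 2 of the 6 were higher and 0 lower, against 7.09% and 8.74% of all probe sets, with a median of 0.13. One was F2rl2, encoding a thrombin receptor, by 1.17 ± 0.20 (adjusted p = 0.00189), while F2r, encoding the main thrombin receptor, gave 0.14 ± 0.10 in SS (adjusted p = 0.405) and 0.22 ± 0.10 in BN (adjusted p = 0.234). F2rl2 passed the filter only through its HTV lungs. Its mean intensity was 34.97 in SS control and 26.87 in BN control lungs, below the filter level of 43.6. With HTV it was 102.7 in SS and 83.43 in BN, where BN HTV 3 read 36.4.

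Between the strains, 4 of the 16 probe sets passed in control lungs, 3 higher in SS (all of Fgl2) and 1 lower (Procr), against 12.3% of all probe sets. In HTV lungs 2 passed, both higher in SS (Fgl2 1370623_at and Tfpi 1368323_at), against 8.37% of all. The lack of overlap between strains given above for probe sets of Fgl2, Tfpi, Thbd and Procr has no such share beside it. How many of all probe sets separate the strains in this way was not counted. Without SS control 3 the counts were 5 and 4. F3 differed between the strains by 0.20 ± 0.21 in control lungs (limma adjusted p = 0.579) and -0.03 ± 0.21 in HTV lungs (adjusted p = 0.963). Without SS control 3, whose F3 was far below that of its group, the control difference was 0.51 ± 0.14 and passed (adjusted p = 0.0406), and without SS control 2 it was -0.01. Among all calls between control strains the share higher in SS moved from 47.9% to 68.0% when arrays were centred on their medians. Markers that also differed were cardiac muscle (4 of 4 lower in SS control lungs) and mesothelium and fibroblast (3 of 4 higher), and their part in the strain differences was not tested. The cardiac markers were dim in SS control lungs, which limits what their differences say. There Tnni3 (20.9 to 38.1) and Nppa (4.2 to 41.6) stayed below the filter level of 43.6. Tnnt2 (0.9 to 47.4) and Myh6 (18.3 to 152.3) were above it only in SS control 1.

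The difference of the HTV effect between SS and BN was tested for each probe set. For the 16 it ran from -0.45 ± 0.21 (Fgl2 1383516_at, with a 95% interval of -0.91 to 0.01) to 0.33 ± 0.24 (Tfpi 1368323_at, -0.19 to 0.86), and 0 passed (limma; 0 at an unadjusted p below 0.05), against 0.0% of all probe sets. Of all probe sets 0 passed, and 1547 were below 0.05 unadjusted. For F3 the difference was -0.22 ± 0.30 (-0.88 to 0.43) and for Plat 0.03 ± 0.18 (-0.36 to 0.42), so the data leave room for strain differences in the response of these sizes.

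For the 7 genes whose representative passed over both strains, the genes with the most similar profiles over the 12 arrays were sought by the root mean square (RMS) difference of centred log2 values, among 10554 genes. Closest to F3 were Nfil3 (0.27), Tubb1 (0.27) and Slc16a3 (0.27), where the RMS spread of F3 about its own mean was 0.83. Closest to Plaur were Ninj1 (0.18), Aqp9 and Slc28a2, and closest to Plat were Sema6b (0.14), Ncoa7 and Irak2. For Procr they were Fv1 (0.11), Rela and Mcam, for Tfpi Lrrn3 (0.17), Mylip and Akr1c14, for Plau Cntrl (0.12), Med18 and Rprd1b, and for Pf4 Mfsd2a (0.23), Nfe2 and Stom. Of these, Nfe2 (0.34 from Pf4) and Tubb1, which was near F3, are on the list of platelet genes read above, while Mfsd2a and Stom are not. The points share 12 arrays in 4 groups, so this ranks profiles and gives no test.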

How the data were processed

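Right lung RNA of 12 rats (3 in each of 4 groups) was measured on Affymetrix arrays. The authors deposited linear intensity values per probe set; per the submitters' processing notes these come from MAS5 (not given in the sources used here: its version). Between the 2nd and 98th percentile the values averaged 149.4 to 149.8 on every array, and no further scaling was applied. No detection calls entered the analysis, and precision is limited by how many arrays there are. Genes were named from the platform annotation, where 20826 probe sets carry 1 gene, 436 carry several and 9780 carry none; a further 57 are controls and were left out. All 9 members matched a RefSeq table (GRCr8) by gene identifier, and coordinates come from RefSeq only.

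Values were taken as log2(intensity + 16) for the 18626 probe sets with a mean intensity of at least 43.6 (the 40th percentile). The 4 group means were fitted together by lmFit and eBayes (intensity trend, 8 residual degrees of freedom) of limma 3.58.1, run in R 4.3.3, so that small groups share 1 estimate of the spread. In each of 6 comparisons p-values were adjusted over every kept probe set (Benjamini-Hochberg, threshold 0.05); intervals are 95%. On simulated data in the SS comparison, 18626 probe sets with 100 changed by 0.5 and 100 by 1.0, the model recovered 26 and 86, with 5 false calls. The simulated noise was normal and independent between arrays and probe sets, without strain differences or an array set apart. The real arrays differ in these points, so the figures may not hold for them.

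Members and lists were chosen with earlier results of these data known. The rule names all probe sets of the members, at most 14 other list genes past the test by smallest adjusted p, Serpinb2, Anxa2, F2r and Vwf (a further item of the rule is not reported here), and the 3 nearest profiles; other genes named as markers or in plots are outside it. The 22 alternatives were pseudocounts of 1 and 64, no filter, a 60th percentile filter, quantile normalization, median centring, array weights, no trend, only the arrays compared, a beta-actin covariate, and each array left out.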

Additional observations from a re-analysis of the deposited data

How the results depend on the processing

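Of 58 differences of member probe sets recomputed under 22 alternatives, 25 were called, 16 of these under every alternative that could be run, and 0 turned sign; 9 lost their call under 1 or more, and 12 of the 33 uncalled ones passed under 1 or more. The 22 differences of other genes of the lists kept their calls. Counts over all probe sets moved most with the arrays: fitting only the arrays compared gave 816 for HTV in SS (1501 as reported) and 1479 for the strains in control lungs (2296), array weights gave 1667 for HTV in BN (1091) and 4138 between control strains, and the beta-actin covariate gave 602 for the strains in HTV lungs (1559). Array weights also gave 8 member probe sets for HTV in SS (5) and 4 for the strains in HTV lungs (2). With 1 array left out the counts ran from 639 to 1490 (HTV in SS, lowest without SS HTV 1), 542 to 1463 (HTV in BN, lowest without BN HTV 1), 758 to 2323 (control strains, lowest without BN control 2), 699 to 2216 (HTV strains, lowest without SS HTV 2) and 0 to 1 (difference of effects). For members they ran from 2 to 8 (HTV in BN), 2 to 6 (control strains) and 1 to 4 (HTV strains). Differences near 0 that turned sign were Thbd 1375951_at in BN (-0.073 with quantile normalization, -0.038 with array weights, -0.005 with the covariate; -0.074 to 0.076 with 1 array left out) and F3 between strains in control lungs (-0.010 with the covariate; -0.013 to 0.508) and in HTV lungs (0.027 with quantile normalization; -0.168 to 0.091). With 1 array left out the ranges of the others were -0.487 to 0.032 (Thbd 1368900_at), -0.140 to 0.030 (Thbd 1368901_at), -0.125 to 0.197 (Fgl2 1383516_at) and -0.347 to 0.028 (Fgl2 1392894_at) for HTV in SS, -0.057 to 0.265 (Fgl2 1370623_at) for HTV in BN, and -0.011 to 0.240 (Tfpi 1389780_at) and -0.307 to 0.014 (Fgl2 1383516_at) for the strains in HTV lungs. The cause of these moves was not tested. The F3 ratios kept their sign throughout; with the other Tfpi probe set, chosen after seeing the data, the shift of F3 over Tfpi was 1.57 in SS and 1.53 in BN. Arrays give no distance from background here, which limits what can be said of Plau 1398287_at and Plaur, the dimmest members kept. No paired analysis was possible because the groups share no replicate numbers in the labels.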
